A study of Homo sapiens with 6 samples.

Results

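The interleukins and colony-stimulating factors of epithelial cells described here are 10 genes, the IL-1 family members IL1A and IL1B, the gp130 ligands IL6, IL11 and LIF, the common gamma chain ligands IL7 and IL15, and the colony-stimulating factors CSF1, CSF2 and CSF3. They were chosen by symbol in the gene tables of reads and of FPKM, a level corrected for transcript length and library size. All 10 were present among the 29845 genes listed, and all 10 had enough reads to be among the 16555 genes tested.

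A549 is a widely used cell line from a human lung carcinoma with epithelial features. The cells were transfected either with the empty plasmid pIRES-hrGFP-1a (control) or with that plasmid carrying human TFAM, the mitochondrial transcription factor A, with a FLAG tag (TFAM-OE), so every culture in the comparison had received plasmid DNA. Poly(A) RNA of 3 samples per group was sequenced, and no selection of the cells that took up the plasmid is described in the sources used here. The comparison asked which of the cytokine genes differ in mRNA level between the groups.

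Interleukins and colony-stimulating factors are secreted proteins by which epithelial cells signal to leukocytes and to each other. IL-1 alpha and IL-1 beta act through a shared receptor and the adaptor MyD88. IL-6, IL-11 and LIF act through receptors that contain gp130, and IL-7 and IL-15 through receptors that contain the common gamma chain, and both routes use JAK kinases and STAT proteins. The colony-stimulating factors were named for the macrophage and granulocyte colonies that they let grow from bone marrow, and in the airway several of these cytokines are made by epithelial cells after infection or injury.

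The libraries held between 26650854 and 37321956 counted reads, and between 16218 and 16891 genes had at least 10 reads. TFAM itself, which should check the labels, had 2555, 1878 and 2663 reads in control libraries against 2291, 2808 and 2492 in the libraries labelled TFAM-OE. The groups overlapped and the log2 fold change was 0.09 (SE 0.096, 95% interval -0.13 to 0.30, adjusted p = 0.62 by edgeR), so the TFAM mRNA did not separate the groups and the second group is called by its label. The study examined the FLAG-tagged protein by western blot, which is not analysed here. The 10 epithelial and A549 markers had reads in every library, but few for EPCAM (9 to 32) and CLDN4 (41 to 74), against 72257 to 106266 for KRT7. Their summed level was 10840 to 11660 CPM, a read count scaled to the size of its library, in the control and 11250 to 13040 CPM in TFAM-OE. By edgeR none of them passed the test in either direction. At an unadjusted p below 0.05, 0 were lower and 2 higher, with 0 and 1 by DESeq2 and 0 and 0 by limma-voom. Of the leukocyte markers 9 of 14 had a single entry, and their summed level was 8.84 to 11.1 CPM in the control and 6.24 to 8.20 CPM in TFAM-OE. Their defining member PTPRC (CD45) had 0 reads in 5 libraries and 1 read in TFAM-OE replicate 3, and CD68, a lysosomal protein abundant in macrophages and present in many other cells, was the 1 of 3 tested that fell (log2 fold change -1.21, SE 0.235, adjusted p = 0.015). The leukocyte integrins ITGAM and ITGAX had 82 to 147 and 52 to 105 reads in a library, with control means of 4.2 and 2.4 CPM. They did not pass (log2 fold changes -0.44 and -0.03, SE 0.186 and 0.26, adjusted p = 0.17 and 0.96 by edgeR). The fibroblast and endothelial markers summed to 5.19 to 5.98 CPM in the control and 3.42 to 5.60 CPM in TFAM-OE, and COL1A1, the 1 tested, did not pass (log2 fold change -0.37, SE 0.221, adjusted p = 0.32). The part of the marker genes in the cytokine values was not tested.

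Of the 10 cytokine genes, 6 (IL1A, IL1B, IL6, IL7, CSF1 and CSF3) fell in the libraries that carry the TFAM-OE label, at an adjusted p below 0.05, and 0 were higher. Over all 16555 genes tested, 4.81% were lower and 3.48% higher by the same rule. The change was at least 2-fold for 5 of the 6, all but CSF1, against 2.07% of all genes that were lower by that rule. IL11, LIF, IL15 and CSF2 did not pass. The count of 6 was 3 without control replicate 1, 2 without control replicate 2 and 2 without TFAM-OE replicate 2. Over all genes tested, 252 of 16838, 240 of 16859 and 262 of 16917 were lower in these fits, against 796 of 16555 with all libraries. The 10 log2 fold changes had a median of -0.91, against -0.01 over all genes tested. In 7 of the 10 every TFAM-OE library was below every control library, which held for 15.8% of all genes tested. The 10 genes were chosen with earlier results of these data known. The shares over all genes are therefore a description and not a test of the set. The test was the quasi-likelihood test of edgeR on the read counts, 3 against 3. No cytokine gene was higher at an unadjusted p below 0.05 either, and the count of higher genes was also 0 by DESeq2 and by limma-voom. When every gene with a read was tested instead, the same 6 were lower, against 4.98% of all 29845 genes. That fit gives every gene a common trend of spread in place of its own. For the test on 16555 genes, a p-value sets the group difference against the spread between the 3 samples of a group. That spread is moderated toward the trend over the genes tested. In RNA from whole cultures, fewer cells that express a gene and less mRNA per cell cannot be told apart.

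**Figure D1:**
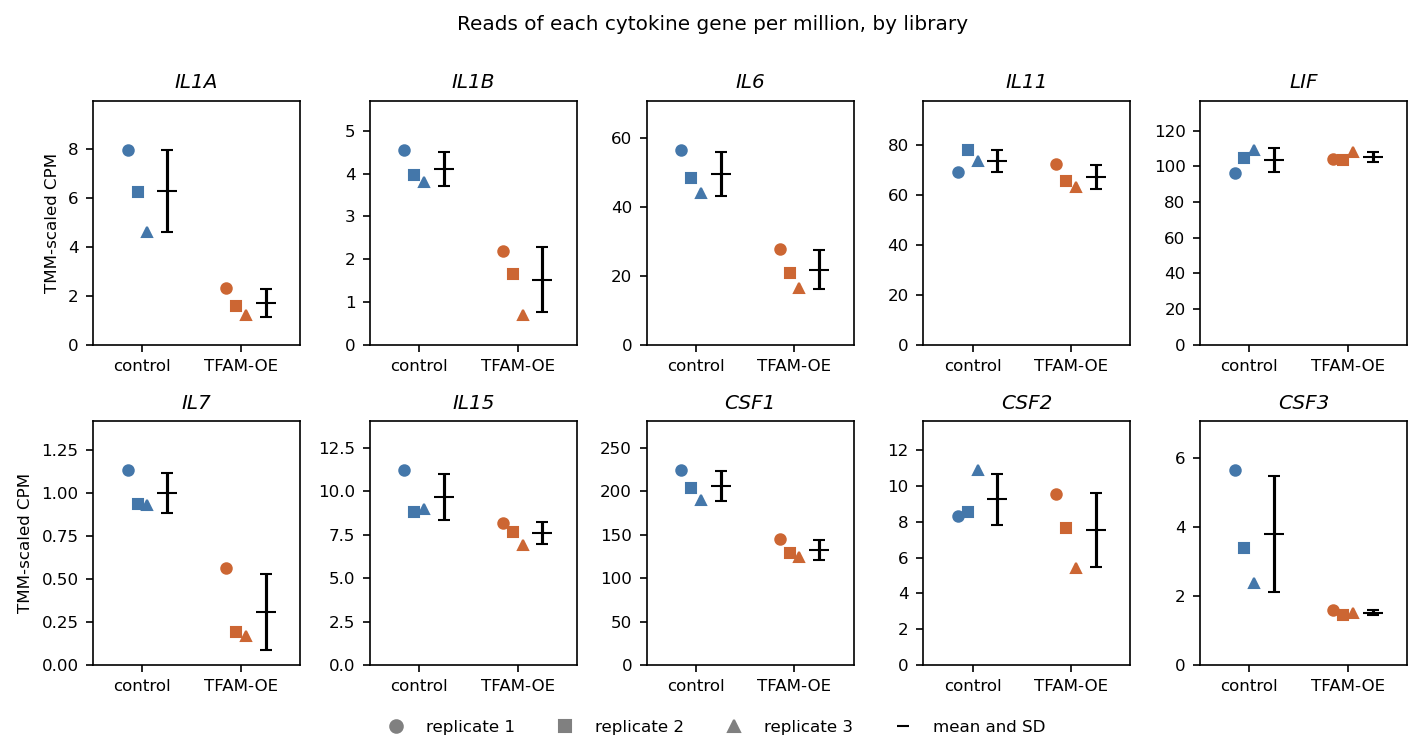
Level of each of the 10 cytokine genes in TMM-scaled CPM (vertical axis, linear from 0 in each panel) for the 3 control (blue) and 3 TFAM-OE libraries (orange), with replicates 1, 2 and 3 as circle, square and triangle and the mean ± SD in black. The orange points lie below all blue points for 7 genes, and the groups overlap for IL11, LIF and CSF2.

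The promoters of IL1A, IL1B and IL6, which fell, are shown beside that of IL11, a gp130 ligand like IL6 that did not pass the test, so that their motifs can be compared. The sequences are from RefSeq (GRCh38.p14), which held a promoter for 5 of the 10 genes (IL1A, IL1B, IL6, IL11 and CSF2). IL7, IL15, CSF1, CSF3 and LIF had none in the table. Each runs 5′ to 3′ on the strand of the gene. IL1A lies on the minus strand at chr2:112784444-112784743, IL1B on the minus strand at chr2:112836730-112837029, IL6 on the plus strand at chr7:22726950-22727249 and IL11 on the minus strand at chr19:55370414-55370713. Capitals mark matches to an AP-1 site (TGANTCA), a C/EBP motif (TTNNGCAA), an interferon response core (GAAANNGAA), a TATA box (TATAAA) and the kappaB consensus.
IL1A: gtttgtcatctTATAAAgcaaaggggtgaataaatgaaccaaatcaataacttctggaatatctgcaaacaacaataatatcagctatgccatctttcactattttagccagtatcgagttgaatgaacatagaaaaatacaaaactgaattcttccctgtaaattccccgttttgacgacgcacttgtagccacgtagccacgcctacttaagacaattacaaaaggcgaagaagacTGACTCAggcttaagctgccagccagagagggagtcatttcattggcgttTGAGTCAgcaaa
IL1B: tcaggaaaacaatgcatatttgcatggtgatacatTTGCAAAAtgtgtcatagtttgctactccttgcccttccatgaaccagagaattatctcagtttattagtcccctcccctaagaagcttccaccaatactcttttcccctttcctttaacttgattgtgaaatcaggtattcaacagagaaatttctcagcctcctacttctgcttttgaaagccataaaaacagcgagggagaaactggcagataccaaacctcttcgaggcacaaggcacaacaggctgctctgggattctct
IL6: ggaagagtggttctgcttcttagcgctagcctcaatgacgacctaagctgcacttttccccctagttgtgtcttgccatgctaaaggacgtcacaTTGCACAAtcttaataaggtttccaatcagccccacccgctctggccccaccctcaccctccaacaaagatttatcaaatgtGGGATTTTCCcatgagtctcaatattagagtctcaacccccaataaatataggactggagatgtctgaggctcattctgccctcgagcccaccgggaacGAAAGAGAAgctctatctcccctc
IL11: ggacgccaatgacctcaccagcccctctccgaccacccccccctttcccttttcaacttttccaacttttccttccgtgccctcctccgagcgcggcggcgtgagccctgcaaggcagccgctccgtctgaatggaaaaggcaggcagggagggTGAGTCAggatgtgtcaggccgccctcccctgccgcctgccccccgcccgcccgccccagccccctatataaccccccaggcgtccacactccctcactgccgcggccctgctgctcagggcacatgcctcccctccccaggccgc
Positions are counted without a 0, so that the start site is the first base with a positive number, with negative numbers upstream. IL1A held AP-1 sites that begin at -12 and 39 and a TATAAA at -239, IL1B a C/EBP motif at -215, and IL11 an AP-1 site at -96. IL6 held a C/EBP motif at -155, a kappaB match at -73 and an interferon response core at 27. The CSF2 promoter, at chr5:132073539-132073838 on the plus strand, held none of the 5 motifs. Both strands were searched, except for TATAAA, which was searched on the strand of the gene alone, and no 2 matches overlapped. Of 35114 RefSeq promoters, 7.71% held the AP-1 site, 10.5% the C/EBP motif, 5.91% the kappaB consensus, 8.11% the interferon response core and 7.33% TATAAA. RefSeq lists a second start of IL1A, whose window overlaps the one shown and holds the same AP-1 letters. The matches are letters in these windows, and no binding was measured. AP-1 letters stood in the promoter of IL1A, whose mRNA fell, and in that of IL11, whose mRNA did not pass the test.

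IL1A encodes IL-1 alpha, an alarm cytokine of epithelial cells that is active also as its precursor, and its estimate was the lowest of the 10 genes, with an interval that overlaps those of IL1B, IL6, IL7 and CSF3. It lies on chromosome 2 from 112773925 to 112784493 (GRCh38, minus strand). Control reads numbered 267, 167 and 168, and TFAM-OE reads 74, 57 and 36. FPKM were 3.29, 2.49 and 1.80 in the control and 0.88, 0.61 and 0.50 in TFAM-OE, so that the highest TFAM-OE library was below the lowest control library. The mean fell from 6.26 ± 1.68 CPM (SD, n = 3) to 1.70 ± 0.572 CPM, which was 3.68-fold lower (log2 fold change -1.88, SE 0.272, 95% interval -2.48 to -1.27, adjusted p = 0.0039 by edgeR). With any single library left out the log2 fold change lay between -2.16 and -1.66 and the adjusted p did not exceed 0.029.

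IL1B encodes IL-1 beta, which is made as an inactive precursor and cut by caspase-1. The gene lies near IL1A on chromosome 2, from 112829751 to 112836816 on the same strand. Control libraries held 153, 106 and 139 reads and TFAM-OE libraries 70, 60 and 21. The FPKM values of 2.46, 2.06 and 1.94 in the control compared with 1.08, 0.84 and 0.38 in TFAM-OE, and TFAM-OE replicate 3 was the lowest of all. The mean went from 4.10 ± 0.401 CPM to 1.52 ± 0.757 CPM, 2.69-fold lower (log2 fold change -1.43, SE 0.313, 95% interval -2.12 to -0.73, adjusted p = 0.024 by edgeR). The call ended without control replicate 1 (log2 fold change -1.34, adjusted p = 0.12), control replicate 2 (-1.45, adjusted p = 0.093) or TFAM-OE replicate 2 (-1.49, adjusted p = 0.089). The log2 ratio of IL1A to IL1B within a library was 0.58 ± 0.273 in the control and 0.26 ± 0.454 in TFAM-OE, with overlapping values (difference -0.32, exact permutation test, two-sided, p = 0.3).

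**Figure D2:**
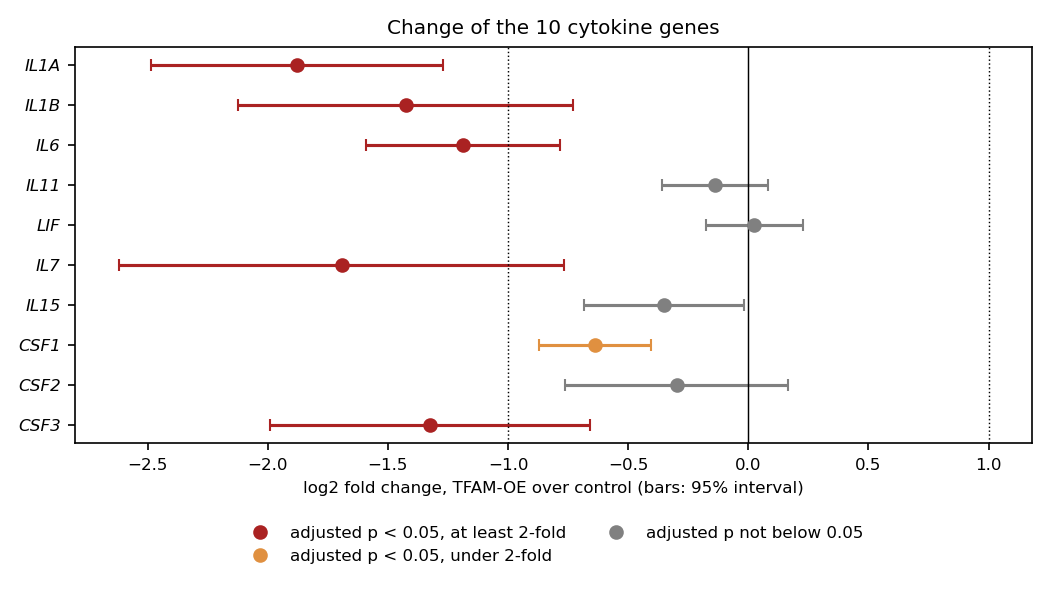
Log2 fold change of each cytokine gene, TFAM-OE over control, on the horizontal axis, with the 95% interval of the edgeR fit as a bar and dotted lines at 2-fold. Red genes passed the test with at least a 2-fold change, CSF1 (amber) passed with a smaller one, and the intervals of IL11, LIF and CSF2 include 0.

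Among the gp130 ligands, IL6 fell, and IL11 and LIF did not pass the test. IL6 encodes interleukin-6, an inducer of the acute phase response and of B cell antibody production, and it lies on chromosome 7 from 22725884 to 22732002 (plus strand). Its reads numbered 1904, 1294 and 1616 in control libraries and 891, 759 and 497 in TFAM-OE libraries. In FPKM these were 29.09, 23.92 and 21.46 against 13.07, 10.14 and 8.59, and the groups were well apart. The mean fell from 49.7 ± 6.41 CPM to 21.8 ± 5.75 CPM, 2.28-fold lower (log2 fold change -1.19, SE 0.182, 95% interval -1.59 to -0.78, adjusted p = 0.0052 by edgeR). It passed with each library left out in turn (log2 fold change -1.41 to -1.02, highest adjusted p 0.038). An antisense gene, IL6-AS1, shares 428 exonic bases with IL6, and the protein-coding STEAP1B shares 46, both on the opposite strand. Whether strand was used in counting is not given in the sources used here. IL6-AS1 had between 5 and 15 reads in a library and STEAP1B between 4 and 29, against at least 497 for IL6.

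IL11, which encodes a cytokine of stromal and epithelial cells known for its roles in megakaryocyte growth and fibrosis, lies on chromosome 19 from 55364382 to 55370463 (minus strand). Its reads were 2332, 2095 and 2707 in the control and 2310, 2393 and 1895 in TFAM-OE. The FPKM values were 25.76, 28.00 and 25.99 in the control and 24.49, 23.11 and 23.67 in TFAM-OE. After TMM scaling TFAM-OE replicate 1, at 72.5 CPM, lay within the control range, so the groups overlapped. The means were 73.9 ± 4.41 CPM and 67.2 ± 4.80 CPM (log2 fold change -0.14, SE 0.099, 95% interval -0.36 to 0.08, adjusted p = 0.42 by edgeR). The interval excludes a 2-fold change in either direction.

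LIF, the leukemia inhibitory factor, acts through LIFR and gp130 and keeps mouse embryonic stem cells undifferentiated in culture. It lies on chromosome 22 from 30240453 to 30246759 (minus strand). It had 3234, 2803 and 4004 reads in control libraries against 3325, 3754 and 3244 in TFAM-OE, which were 21.34, 22.38 and 22.96 FPKM and 21.06, 21.66 and 24.21 FPKM. The groups lay inside each other, with means of 103.4 ± 6.58 CPM and 105.2 ± 2.54 CPM (log2 fold change 0.03, SE 0.091, 95% interval -0.18 to 0.23, adjusted p = 0.89 by edgeR). Its estimate was the one positive value among the 10 genes, and it changed sign to -0.018 without control replicate 1. LIF-AS1 and LIF-AS2, on the opposite strand, share 86 and 83 exonic bases with it and had at most 5 and 27 reads in a library.

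The difference between the gp130 ligands was compared within libraries, where scaling cancels. The log2 ratio of IL6 to IL11 reads was -0.29, -0.70 and -0.74 in the control and -1.37, -1.66 and -1.93 in TFAM-OE, a difference of -1.08 with no overlap. For IL6 to LIF the ratio was -0.76, -1.11 and -1.31 in the control and -1.90, -2.31 and -2.71 in TFAM-OE, a difference of -1.24, again with no overlap. IL6 was thus lower relative to both other ligands in every TFAM-OE library. The ratio of IL11 to LIF had means of -0.49 and -0.65 with overlapping values. In the exact permutation test, two-sided, both IL6 ratios gave p = 0.1, the smallest that 3 against 3 allows (0.2 adjusted over the 8 pairs of related genes compared), and IL11 to LIF gave p = 0.2 (adjusted 0.229). The design cannot reach 0.05 in this test.

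IL7 and IL15 sustain lymphocytes, IL-7 above all developing and resting T cells and IL-15 natural killer and memory T cells. IL7 lies on chromosome 8 from 78675743 to 78805523 (minus strand) and had the lowest reads of the 10 genes, with 38, 25 and 34 in the control and 18, 7 and 5 in TFAM-OE. FPKM were 0.48, 0.38 and 0.37 in the control and 0.22, 0.08 and 0.07 in TFAM-OE. TFAM-OE replicate 1 was nearest to the control, and the groups did not overlap. The mean went from 0.998 ± 0.116 CPM to 0.308 ± 0.223 CPM, 3.23-fold lower (log2 fold change -1.69, SE 0.416, 95% interval -2.62 to -0.77, adjusted p = 0.037 by edgeR). The call rested on several libraries, since the adjusted p was 0.16, 0.12 and 0.065 without control replicate 1, 2 or 3 (log2 fold changes -1.58, -1.73 and -1.75) and 0.16 without TFAM-OE replicate 2 (-1.42). IL7 shares 322 exonic bases with ZC2HC1A on the opposite strand, which had 285, 188 and 291 reads in control libraries against 213, 299 and 297 in TFAM-OE, and overlapping reads cannot be told apart if strand was not used.

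IL15 lies on chromosome 4 from 141636583 to 141733987 (plus strand). It had 377, 236 and 329 reads in control libraries against 261, 279 and 207 in TFAM-OE, or 1.31, 0.99 and 1.00 FPKM against 0.87, 0.85 and 0.82 FPKM. Every TFAM-OE library was below every control library, by a narrow margin. The means were 9.67 ± 1.35 CPM and 7.59 ± 0.650 CPM (log2 fold change -0.35, SE 0.149, 95% interval -0.68 to -0.02, unadjusted p = 0.04, adjusted p = 0.17 by edgeR). The log2 ratio of IL7 to IL15 reads was -3.31, -3.24 and -3.27 in the control and -3.86, -5.32 and -5.37 in TFAM-OE (difference -1.57, exact permutation test, two-sided, p = 0.1, adjusted 0.2), so IL7 was lower relative to IL15 in each TFAM-OE library.

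Among the colony-stimulating factors, CSF1 and CSF3 fell, and CSF2 did not pass the test. CSF1 encodes the macrophage colony-stimulating factor M-CSF and lies on chromosome 1 from 109910242 to 109930992 (plus strand). It had the most reads of the 10 genes, 7550, 5473 and 6989 in the control and 4642, 4674 and 3719 in TFAM-OE. FPKM were 40.42, 35.46 and 32.52 in the control and 23.86, 21.88 and 22.52 in TFAM-OE. The groups were clearly separate, and the mean fell from 206.7 ± 17.2 CPM to 132.7 ± 11.4 CPM, 1.56-fold lower (log2 fold change -0.64, SE 0.104, 95% interval -0.87 to -0.41, adjusted p = 0.0069 by edgeR). Without control replicate 2 (log2 fold change -0.64, adjusted p = 0.052) or TFAM-OE replicate 2 (-0.61, adjusted p = 0.06) it no longer passed.

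CSF2 encodes the granulocyte-macrophage factor GM-CSF, which alveolar macrophages need to mature and to clear surfactant. It lies on chromosome 5 from 132073789 to 132076170 (plus strand) and had 280, 228 and 399 reads in control libraries against 305, 277 and 162 in TFAM-OE. In FPKM these were 9.32, 9.18 and 11.54 against 9.74, 8.06 and 6.10. TFAM-OE replicate 1 lay among the controls and TFAM-OE replicate 3 below all of them. The means were 9.25 ± 1.42 CPM and 7.53 ± 2.09 CPM (log2 fold change -0.30, SE 0.208, 95% interval -0.76 to 0.17, adjusted p = 0.40 by edgeR), and the interval excludes a 2-fold change.

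CSF3 encodes the granulocyte factor G-CSF and lies on chromosome 17 from 40015361 to 40017813 (plus strand). Its reads were 190, 91 and 87 in the control and 51, 53 and 45 in TFAM-OE. FPKM were 2.81, 1.63 and 1.12 in the control and 0.73, 0.69 and 0.75 in TFAM-OE. The spread lay almost wholly in the control, where replicate 1 was far above the other two, while the TFAM-OE libraries were nearly equal. The mean went from 3.81 ± 1.68 CPM to 1.52 ± 0.0730 CPM, 2.50-fold lower (log2 fold change -1.32, SE 0.299, 95% interval -1.99 to -0.66, adjusted p = 0.027 by edgeR). The call ended without control replicate 1 (log2 fold change -0.91, adjusted p = 0.097), control replicate 2 (-1.39, adjusted p = 0.086) or TFAM-OE replicate 2 (-1.29, adjusted p = 0.11). It also ended in the limma-trend test on FPKM with 0.1 or 1 added before logs (adjusted p = 0.057 and 0.073).

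Within libraries, the log2 ratio of CSF1 to CSF3 reads rose from 5.85 ± 0.511 in the control to 6.45 ± 0.071 in TFAM-OE with no overlap (difference 0.60, exact permutation test, two-sided, p = 0.1, adjusted 0.2). The ratio of CSF2 to CSF3 differed by 0.91 and that of CSF1 to CSF2 by -0.32, each with overlapping values and p = 0.2 in the exact permutation test (adjusted 0.229). As for the gp130 ligands, 3 against 3 cannot reach 0.05 in this test, so it does not show whether the colony-stimulating factors differed in response.

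**Figure D3:**
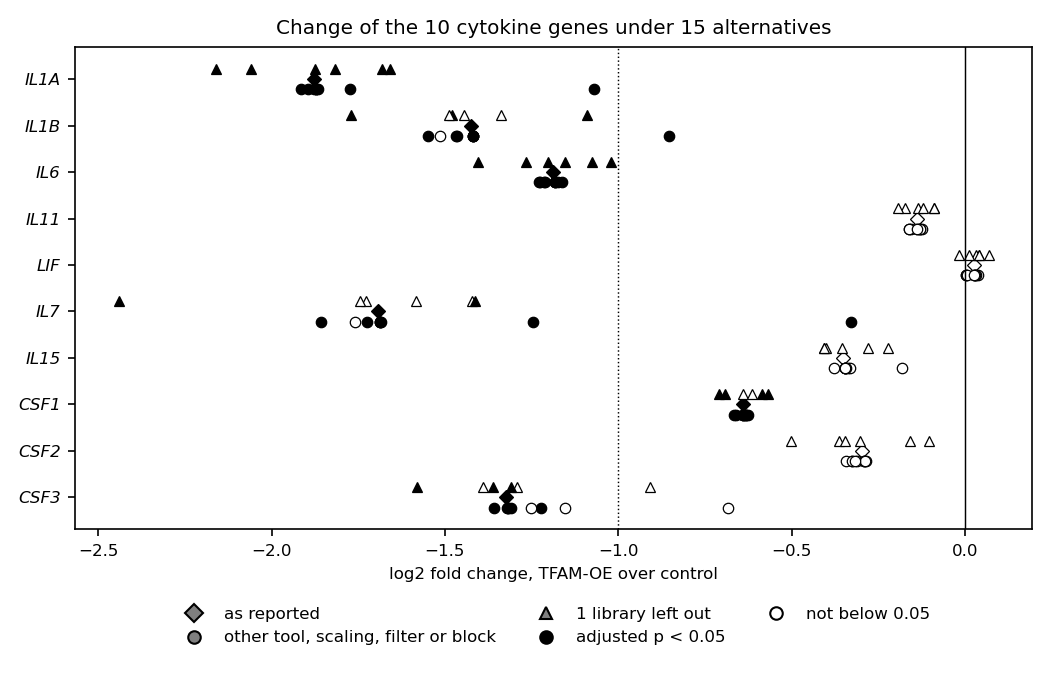
Log2 fold change of each gene as reported (diamonds), with 1 library left out (triangles) and under another tool, scaling, filter or the replicate block (circles), where filled marks have an adjusted p below 0.05 and open marks do not. All marks of IL1A and IL6 are filled, and IL1B, IL7, CSF1 and CSF3 have open marks among filled ones.

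On the FPKM scale, which divides by a gene length, the 10 genes fell into an abundant and a scarce set in the control. The order between genes depends on that length, which is not given in the sources used here. IL15, with 7876 exonic bases over its annotated transcripts, had 236 to 377 control reads. CSF2, with 788 such bases, had 228 to 399, so their distance in FPKM comes from the length. CSF1 was highest at 36.1 ± 3.99 FPKM (SD, n = 3), followed by IL11 (26.6 ± 1.23), IL6 (24.8 ± 3.89), LIF (22.2 ± 0.821) and CSF2 (10.01 ± 1.32). The scarce genes were IL1A (2.53 ± 0.746), IL1B (2.15 ± 0.272), CSF3 (1.85 ± 0.867), IL15 (1.10 ± 0.182) and IL7 (0.41 ± 0.0608). Neighbours whose control values overlapped, and whose order is therefore not set, were IL11 with IL6, IL6 with LIF, IL1A with IL1B, IL1B with CSF3 and CSF3 with IL15. In TFAM-OE the order by mean FPKM was IL11 (23.8), CSF1 (22.8), LIF (22.3), IL6 (10.6), CSF2 (7.97), IL15 (0.847), IL1B (0.767), CSF3 (0.723), IL1A (0.663) and IL7 (0.123). Values overlapped there among IL11, CSF1 and LIF, between IL6 and CSF2, and among IL15, IL1B, CSF3 and IL1A. The order within these sets is therefore not fixed, except that every IL15 value (0.82 to 0.87) was above every CSF3 value (0.69 to 0.75). The genes that passed were found in both sets, CSF1 and IL6 among the abundant and IL1A, IL1B, CSF3 and IL7 among the scarce.

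Many cytokine mRNAs carry AU-rich elements in the 3′ untranslated region (UTR), which proteins such as tristetraprolin (ZFP36) bind to shorten the life of the mRNA. The nonamer TTATTTATT, a strict form of the element, was counted in the 3′ UTR of the GENCODE canonical transcript of each gene. It stood in 4 of the 10 genes, 6 times in IL11, 3 times in CSF2 and 2 times each in IL1B and LIF, counting overlaps. A stretch of each UTR is shown, as DNA letters of the mRNA strand with the nonamers in capitals, so that they can be compared.
IL11: ccaaagccagatcTTATTTATTTATTTATT
CSF2: atttttaaaatatTTATTTATTTATTTATT
IL1B: agcaaccgcttccctatTTATTTATTTATT
LIF: aagagagatgtctccgggcccTTATTTATT
The stretches begin at UTR bases 29, 218, 331 and 2654. No nonamer was found in IL1A, IL6, IL7, IL15, CSF1 or CSF3, which held the shorter core ATTTA 5, 6, 4, 4, 4 and 7 times. Among UTRs within 20% of their length, 1.05% held at least as many of the core as IL6 and 2.14% at least as many as CSF3. The shares were 18.4% for IL1A, 19.0% for IL7, 27.2% for IL15 and 56.6% for CSF1. The genes with a nonamer held the core 8 (CSF2), 6 (IL1B), 9 (IL11) and 7 times (LIF), with shares of 0.0643%, 1.64%, 6.95% and 50.3%. Of 19538 human 3′ UTRs, 8.44% held a nonamer. Among UTRs within 20% of the length of each gene's own, 2.06% held one for CSF2, 3.81% for IL1B, 8.37% for IL11 and 14.0% for LIF. Of the 4 genes with a nonamer, IL1B fell and CSF2, IL11 and LIF did not pass the test. This is a description of the sequences, and mRNA decay was not measured.

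The receptors of these cytokines were measured in the same cells. Of 14 receptor genes 12 had a single entry and 9 had enough reads to be tested. CSF2RA and CSF3R did not have a single entry and are not analysed here. By edgeR 1 of the 9 was lower (IL15RA) and 0 higher, with a median log2 fold change of -0.53, against 5 lower and 0 higher at an unadjusted p below 0.05, 3 and 0 by DESeq2 and 2 and 0 by limma-voom. Over all genes tested, 4.81% were lower and 3.48% higher by edgeR, which is the background of the lists below too. DESeq2 gave 1016 and 944 of the 29845 genes with a read, and limma-voom 775 and 565 of 16555. The 29845 include genes that the low-count filter of DESeq2 can leave without an adjusted p, so these shares are not on the same base. No share over all genes was taken at an unadjusted p. IL15RA, which binds IL-15 with high affinity and presents it to neighbouring cells, had 251, 232 and 287 reads in control libraries against 152, 144 and 111 in TFAM-OE. The groups did not overlap (7.99 ± 0.612 CPM and 4.14 ± 0.557 CPM, log2 fold change -0.95, SE 0.154, adjusted p = 0.0068 by edgeR, 0.054 without control replicate 2). IL6ST, which encodes gp130, was the most abundant receptor gene with 8075, 5659 and 5720 reads in control libraries against 2679, 4281 and 4580 in TFAM-OE. Its groups did not overlap after scaling, but the adjusted p of 0.051 just missed the threshold (log2 fold change -0.78, SE 0.212).

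The other receptor genes did not pass. The IL-1 receptor chain IL1R1 had a log2 fold change of -0.11 (SE 0.199, adjusted p = 0.77) and its partner IL1RAP one of -0.53 (SE 0.159, adjusted p = 0.068). For the gp130 partners the values were -0.69 for LIFR (SE 0.246, adjusted p = 0.11), -0.07 for IL6R (SE 0.178, adjusted p = 0.85) and 0.44 for IL11RA (SE 0.226, adjusted p = 0.25). IL7R stood at -0.22 (SE 0.265, adjusted p = 0.64), and IL2RG, the common gamma chain, at -1.06 (SE 0.455, adjusted p = 0.18) on 7 to 24 reads. CSF1R had 1 to 8 reads in a library, and IL2RB and CSF2RB had at most 2 and 1, too few to test. CSF1R and CSF2RB, a receptor gene for CSF1 and one for the granulocyte-macrophage factor, were thus at or near 0 in cells that expressed their ligands.

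**Figure D4:**
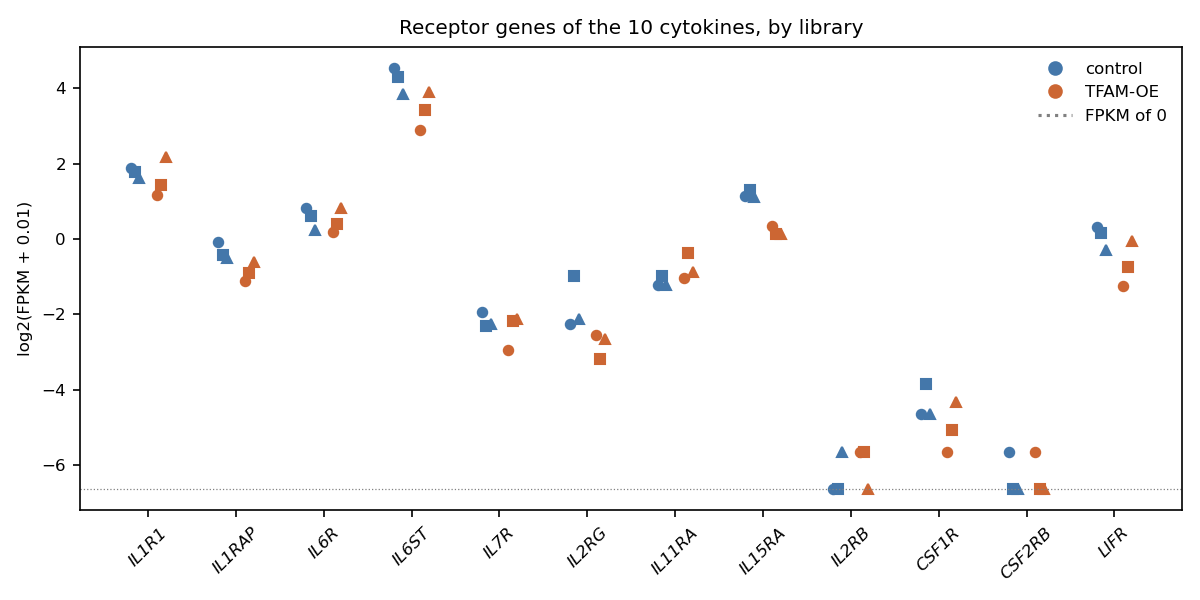
Level of each receptor gene in every library on a log2 scale of FPKM with 0.01 added (vertical axis), control in blue and TFAM-OE in orange, with replicates 1, 2 and 3 as circle, square and triangle and a dotted line at an FPKM of 0. IL6ST is the highest, and IL2RB, CSF1R and CSF2RB lie near the line. IL15RA, IL1RAP and IL2RG separate the groups, and of these IL15RA alone passed the test.

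Of 12 genes that process or restrain cytokines 10 were tested, and 2 were lower and 2 higher, with a median log2 fold change of -0.13. At an unadjusted p below 0.05 the counts were 4 and 3, with 2 and 3 by DESeq2 and 2 and 2 by limma-voom. CASP1, the protease that matures IL-1 beta, had 98, 60 and 75 reads in control libraries against 24, 34 and 17 in TFAM-OE and fell by 1.66 on the log2 scale (SE 0.253, adjusted p = 0.0052 by edgeR). PCSK1, a prohormone convertase, had 46, 23 and 31 reads in control libraries against 15, 4 and 12 in TFAM-OE and fell by 1.68 (SE 0.441, adjusted p = 0.046). Those that rose were SIGIRR, a single-domain receptor that dampens IL-1 receptor signals (log2 fold change 0.47, SE 0.121, adjusted p = 0.044), and CAPN1, a subunit of calpain, a protease family that cuts the IL-1 alpha precursor (0.41, SE 0.109, adjusted p = 0.046). Both of these calls were lost without control replicate 1, 2 or 3 or TFAM-OE replicate 2 (adjusted p = 0.17, 0.11, 0.079 and 0.2 for SIGIRR and 0.18, 0.14, 0.061 and 0.18 for CAPN1), and that of CAPN1 also without TFAM-OE replicate 1 (0.064). PCSK1 was lost without any 1 control replicate or TFAM-OE replicate 2 (0.21, 0.12, 0.064 and 0.15).

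Among other cytokines of the same families, 17 of 25 had a single entry, 8 were tested, 2 were lower and 0 higher, with a median of -0.36. KITLG, the stem cell factor, had 433, 287 and 335 reads in control libraries against 175, 202 and 196 in TFAM-OE (log2 fold change -0.90, SE 0.163, adjusted p = 0.012 by edgeR). CLCF1, another gp130 family cytokine, fell less, by 0.49 on the log2 scale (SE 0.117, adjusted p = 0.032). At an unadjusted p below 0.05 the counts were 3 and 0, and DESeq2 and limma-voom gave 2 and 0 each. Of 10 further interleukins that epithelial cells can make, 4 were tested and 1 was lower, with a median of -0.72. That gene was IL24, a member of the IL-10 family that acts on skin and other epithelia. It had 546, 239 and 236 reads in control libraries against 51, 40 and 11 in TFAM-OE, and its mean went from 10.5 ± 5.10 CPM to 1.02 ± 0.620 CPM, 10.2-fold lower (log2 fold change -3.35, SE 0.450, adjusted p = 0.0028 by edgeR). The estimate for IL24 was thus lower than that of any of the 10 cytokine genes, a difference that was not tested, and it passed with each library left out in turn. None of the 4 was higher, at an unadjusted p either, and DESeq2 and limma-voom also found 1 lower and 0 higher.

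The signal relays below the receptors were counted by route. Of the 12 JAK-STAT relays, by edgeR 0 were lower and 0 higher at an adjusted p below 0.05, with a median log2 fold change of -0.01. At an unadjusted p below 0.05, 2 were lower and 2 higher, and DESeq2 and limma-voom found 0 in both directions. Of the 13 IL-1 receptor relays tested, 2 were lower and 0 higher by all 3 tools, with a median of -0.15. A difference between the routes was not tested. The genes that passed were MYD88, the adaptor that links the IL-1 receptor to its kinases, which went from 114.9 ± 15.2 CPM to 70.1 ± 9.12 CPM (log2 fold change -0.71, SE 0.131, adjusted p = 0.012 by edgeR), and IRAK2, one of those kinases (149.9 ± 8.65 CPM to 114.9 ± 9.77 CPM, log2 fold change -0.38, SE 0.099, adjusted p = 0.044).

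Of 19 genes for transcription factors known to act at cytokine promoters, 5 were lower and 0 higher. The median was -0.31, and over all genes tested 4.81% were lower and 3.48% higher. At an unadjusted p below 0.05, for which no share over all genes was taken, the counts were 10 and 0. DESeq2 gave 6 and 0 and limma-voom 4 and 0. EGR1, an immediate early zinc finger factor, had 1030, 301 and 189 reads in control libraries against 43, 43 and 37 in TFAM-OE. Control replicate 1 was more than the other two together, and the TFAM-OE libraries were nearly equal (log2 fold change -3.64, SE 0.578, adjusted p = 0.0061 by edgeR, -4.06 to -2.69 with 1 library left out). FOSB, an AP-1 subunit, had 309, 80 and 63 reads in control libraries against 25, 21 and 24 in TFAM-OE (log2 fold change -2.69, SE 0.574, adjusted p = 0.022). Its partner JUN went from 143.8 ± 28.4 CPM to 85.5 ± 4.80 CPM (log2 fold change -0.75, SE 0.137, adjusted p = 0.012). The remaining genes, named after their values were seen, were IRF1 (log2 fold change -0.61, SE 0.133, adjusted p = 0.024) and JUNB (-0.47, SE 0.116, adjusted p = 0.038). By FPKM, control replicate 1 was the highest library for EGR1, FOSB and IL24 and also for IL1A, IL1B, IL6, IL7, IL15, CSF1 and CSF3. Without it 3 of the 10 cytokine genes passed, IL1A, IL6 and CSF1, against 252 lower and 90 higher of 16838 genes tested.

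Of 13 regulators of cytokine mRNA decay, 1 was lower and 0 higher, with a median of -0.11. It was ZFP36, which encodes tristetraprolin, a protein that binds AU-rich elements and speeds mRNA decay. It had 1313, 957 and 1105 reads in control libraries against 587, 652 and 607 in TFAM-OE (log2 fold change -0.89, SE 0.126, adjusted p = 0.0034 by edgeR). At an unadjusted p below 0.05 the counts were 3 lower and 2 higher, with 2 and 1 by DESeq2 and 1 and 0 by limma-voom.

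Over these 8 lists together, 16 of the 88 genes tested passed, 14 lower and 2 higher, against 796 and 576 of all 16555 genes tested. CASP1, IL24, EGR1 and ZFP36 passed with each library left out in turn, and the other 12 were lost without at least 1 library. The count of lower list genes was 8, 4 and 6 without control replicate 1, control replicate 2 or TFAM-OE replicate 2, and 27 without TFAM-OE replicate 3. Over all genes tested it was 252, 240, 262 and 1786 in the same fits. The count of higher list genes was 0 without each of the first 3, 1 without control replicate 3 and 5 without TFAM-OE replicate 3. Over all genes tested it was 90, 66, 89, 482 and 1428 in that order.

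**Figure D5:**
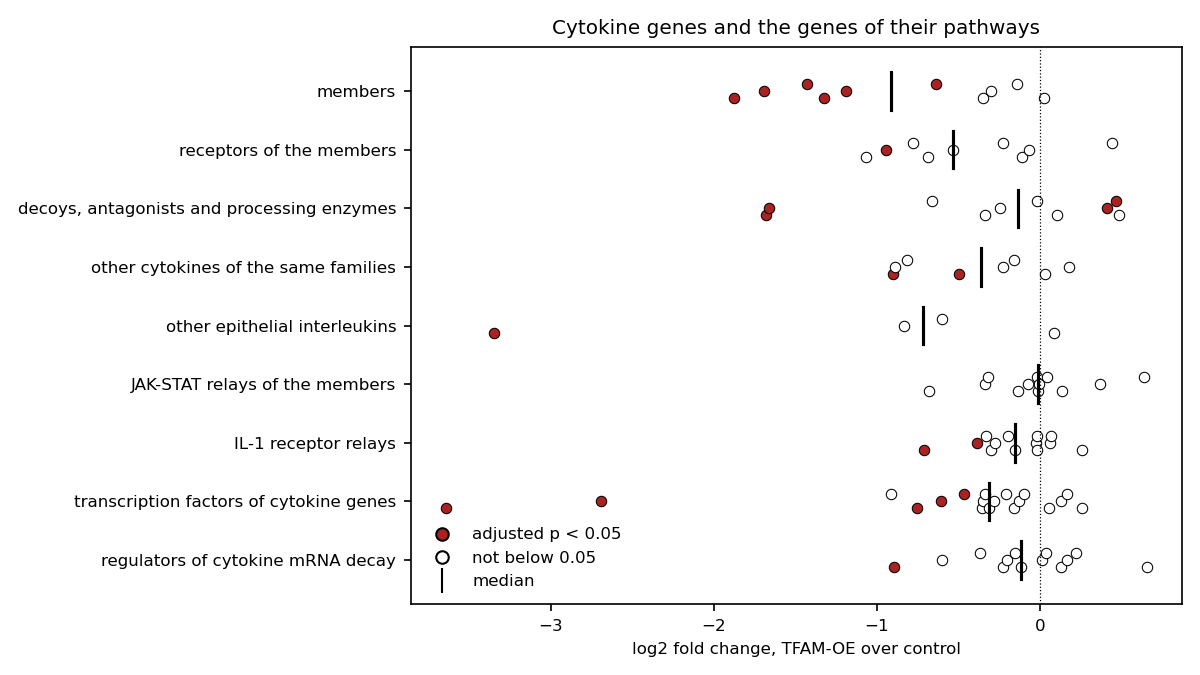
Log2 fold change, TFAM-OE over control (horizontal axis), of each tested gene of the 10 cytokine genes (labelled members) and of 8 lists of related genes, with red points at an adjusted p below 0.05, open points otherwise and a bar at the median of each row. The median of the cytokine genes is at -0.91 and that of the JAK-STAT relays at -0.01.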

How the data were processed

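RNA of 6 A549 samples was measured, 3 control and 3 TFAM-OE, grouped by their labels. The authors trimmed reads with the FASTX-Toolkit, aligned them to GRCh38 with TopHat2 and deposited, for each gene and library, the count of uniquely mapped reads. They also deposited FPKM values per gene. The submitters' processing notes name bcl2fastq, TopHat2 and edgeR. Which annotation and counting program they used, and whether strand was counted, is not given in the sources used here. Unused value columns numbered 0.

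The test was edgeR's quasi-likelihood test (edgeR 4.0.16, R 4.3.3), two-sided, after TMM scaling, on the 16555 genes kept by filterByExpr (minimum count 10), with Benjamini-Hochberg adjustment over all of them. A gene passed at an adjusted p below 0.05 and was called when it also changed at least 2-fold. CPM are TMM-scaled. With all 29845 genes the prior degrees of freedom were infinite, which gives every gene the fitted common trend of spread in place of its own, so that fit is an alternative. The study's methods name edgeR and a 2-fold threshold but not the filter or the test. The code was tested on simulated data. The labels do not say whether the samples came from separate cultures, and the study calls them biological replicates. Counts of reads without molecular identifiers set counting error only.

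Alternatives were DESeq2 (1.42.0), limma-voom and limma-trend (3.58.1) on FPKM with 0.1 or 1 added (genes over 0.1 FPKM in at least 3 libraries), RLE, upper-quartile and library size scaling, the replicate number as a block, and each library left out. The 10 cytokine genes and the lists were chosen with earlier results of these data known. Named genes were the 10, every receptor gene, TFAM, and from each other list up to 3 genes per direction with the smallest p among those that passed. Ratios between genes of a library were compared with the exact permutation test in Python (3.11.15) with numpy (2.4.6) and pandas (2.3.3), and figures drawn with matplotlib (3.10.9). Gene coordinates and 3′ UTRs are from GENCODE 44 and promoters from RefSeq, both on GRCh38.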

Additional observations from a re-analysis of the deposited data

How the results depend on the processing

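Of 150 alternative values of the 10 genes, 132 kept their direction and side of the threshold, 17 kept the direction but no longer passed, and 1 changed sign. IL1A and IL6 passed under all 15 alternatives (adjusted p up to 0.029 and 0.038). With 1 library left out the log2 fold change lay between -1.77 and -1.09 for IL1B, -2.44 and -1.41 for IL7, -0.71 and -0.57 for CSF1, -1.58 and -0.91 for CSF3, and -0.018 (the change of sign) and 0.068 for LIF. The number of cytokine genes lower was then 2 to 6 and the number lower by at least 2-fold 2 to 5. Over all genes 183 to 448 were called lower and 21 to 113 higher, against 342 and 74, and over the 8 related lists 4 to 27 passed lower and 0 to 5 higher. On FPKM, CSF3 was at -1.15 with 0.1 added and -0.69 with 1 added. With 1 added 2 cytokine genes were called lower and 108 and 11 of all genes lower and higher. That scale shrinks low genes, IL7 to -0.33. With all genes tested 528 and 129 were called, with 25 and 5 in the lists, and DESeq2 gave 4 list genes higher. Causes of these differences were not tested.

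Same-numbered control and TFAM-OE libraries did not deviate together (r of their deviations from the group means over genes -0.225, 0.008 and -0.266), so the numbers were not treated as pairs. Control replicate 1 with TFAM-OE replicate 3 had an r of 0.243, and control replicate 3 with TFAM-OE replicate 1 an r of 0.252. The remaining pairs of unlike number lay between -0.039 and 0.032. The source of these values was not tested. With the replicate block 3 cytokine genes were lower (IL1A, IL6 and CSF1) and 2 called, IL1B was at -1.515, IL7 at -1.76 and CSF3 at -1.25 without passing (adjusted p = 0.052, 0.08 and 0.067 by edgeR), 217 and 38 of all genes were called lower and higher, and 6 and 0 list genes passed.

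Precision is limited by 3 samples per group and, for IL7, by 5 to 38 reads in a library.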

Other observations

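The genes whose profiles over the 6 libraries were nearest to those of 2 of the cytokine genes were found among all genes tested, by the Euclidean distance between log2 CPM values, each centred on its own mean. This is a description with no test. For IL1A, whose centred values spanned 2.67 log2 units from the lowest to the highest library, the nearest were HCAR2 at a distance of 0.329, RPLP0P2 at 0.358, PPP1R15A at 0.416, PTPRR at 0.44 and HLA-C at 0.462. HCAR2, a receptor for nicotinic acid, averaged 5.24 CPM in the control and 1.54 CPM in TFAM-OE. PPP1R15A, a stress-induced subunit of a protein phosphatase, averaged 345.8 and 116.3 CPM, and HLA-C, a class I antigen-presenting molecule, 468.3 and 152.2 CPM. RPLP0P2 is a pseudogene and HLA-C has close paralogs, and reads of such genes are uncertain where copies are near identical.

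For LIF, the cytokine gene with the smallest p among those with a positive estimate, the centred values spanned 0.182 log2 units. The nearest genes were TAF5L at a distance of 0.0475, IQSEC2 at 0.051, SMARCD1 at 0.0624, NUP188 at 0.064 and ABR at 0.0641, with log2 fold changes between 0.01 and 0.06. Like LIF, these genes did not pass the test.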
